A study of Mus musculus with 8 samples.

Results

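The staining of UV-treated DNA arrays by an antibody against cyclobutane pyrimidine dimers (CPDs) was set against that by an antibody against 6-4 photoproducts (6-4PPs), sequence context by sequence context. The 4 arrays compared, of 8 in the series, were chosen by their labels: 2 UV arrays stained with mouse anti-CPD at a dilution of 1:400 and 2 UV arrays stained with mouse anti-6-4PP at 1:80. The other 4 arrays, 2 per antibody at the same dilutions, had no UV treatment and served as the background. Each array carries 122095 different printed 60-base sequences of a universal design, made to measure antibody signal over short sequences. The labels used here name neither a UV dose nor how the second strand arose. The samples hold antibodies on printed DNA and no cells. Antibody and dilution change together, so they cannot be told apart, and a signal joins how often a lesion formed with how well it was bound.

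UV light joins neighbouring pyrimidines (T or C) of a strand. In a CPD a ring of carbon atoms bridges both bases, and in a 6-4PP a single bond links them and the DNA is bent more strongly. Both lesions are removed by nucleotide excision repair, 6-4PPs faster, and unrepaired lesions at cytosines give the C-to-T changes typical of sunlight. A step here is a pair of adjacent pyrimidines read along its own strand, so TT, TC, CT and CC are the 4 possible steps. A lone step or run is the sole place on a probe, on either strand, where pyrimidines adjoin.

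The contexts on which the results turn are shown by 1 printed sequence each, the one nearest to the median of its class. Each shows the 27 variable bases of the printed strand in the direction of the listing, with the lone pyrimidine run in capitals and its start in bases from the first one.
thymine pair after adenine, start 7: tatgcaTTatgcatgtatgtatgcacg
thymine pair after guanine, start 13: cgtatgcatgcgTTatatgtatgcacg
thymine-cytosine after adenine, start 7: tatgcaTCacatacgtatgtatgcacg
thymine-cytosine after guanine, start 9: cgtatgcgTCacatgtatgtatgcacg
run of 5 thymines after adenine, start 8: gtatgcaTTTTTgtatatgtatgcacg
cytosine before a thymine pair, start 12: gtatgcacataCTTgtatgtatgcacg
thymine between cytosines, start 12: gtatgcgcgcaCTCgtatgtatgcacg
mixed run without a thymine pair, start 10: gtatgcataTCCTCatatgtatgcacg
After these bases come 33 shared ones, present on 122086 sequences and free of steps on both strands.
shared end: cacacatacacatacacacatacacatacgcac

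Signal is given in units in which 0 is the median of the 550 probes without any step and 1 is the median of the 466 probes with a lone TT on the printed strand, set for each array. Those 466 probes pool 262 with adenine and 204 with guanine before the pair, at unlike levels. After adenine they stood at 1.33 units with CPD and 1.57 with 6-4PP, and after guanine at 0.388 and 0.0660 (means of 2 arrays). The level of 1 thus depends on this mix. In intensity the no-step medians were 1625 and 1614 on the CPD arrays and 1972 and 1975 on the 6-4PP arrays. The lone TT medians were 9048 and 8153 with CPD and 7432 and 7863 with 6-4PP, so the unit spanned a similar range of intensity with both antibodies. The median over all probes was 0.285 and 0.274 units with CPD and 0.855 and 0.792 units with 6-4PP. A difference between the antibodies is therefore relative to the lone TT, and its direction can turn with another unit. Differences were taken as log2(units + 0.1), CPD minus 6-4PP, and tested with limma on 2 arrays against 2, with Benjamini-Hochberg adjustment and 0.05 as the threshold. Where an antibody is near 0 units, the size of a log2 difference rests largely on the added 0.1. With 0.05 or 0.25 added in its place, 21 of 26 called flank differences and 57 of 108 called run differences moved by over 1.5 times, and 0 of them changed sign. Nothing in the labels says that the replicates came from separate preparations, so p-values measure the spread between these arrays alone. Arrays with the same replicate number shared single-spot features: the log2 differences between replicates correlated between the antibodies with r = 0.672 over the 122095 probes on UV arrays, and with 0.770 on non-UV arrays. Of the 1114 probes whose CPD arrays differed by over 4-fold, 655 did so with 6-4PP too, all 655 in the same direction. Results that rest on single probes touch these spots, and class medians were also taken without the 1569 discordant probes.

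The TC step separated the antibodies most among lone steps. On the printed strand a lone TC reached 0.0240 and 0.0221 units with CPD and 0.475 and 0.436 units with 6-4PP (467 probes). The CPD values lie close to probes without a step, and the groups do not overlap. The log2 difference was -2.17 (SE 0.042, n = 2 per antibody, limma adjusted p = 5.07e-05), and -2.79 or -1.37 with 0.05 or 0.25 units added. A lone CT gave 0.0473 and 0.0458 units with CPD and 0.0803 and 0.0849 units with 6-4PP (-0.32, adjusted p = 8.75e-04). A lone CC gave 0.00737 and 0.00933 with CPD and 0.0303 and 0.0270 with 6-4PP (-0.25, adjusted p = 0.00185). Both were faint, and both were higher with 6-4PP on the shared scale. Of 7 step classes tested, 6 passed (85.7%), 5 higher with 6-4PP and 1 with CPD. With the median of all probes as the unit, 5 passed, 3 of them higher with CPD.

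On the complement strand the same steps gave weaker signal. A lone TT there reached 0.241 and 0.215 units with CPD and 0.217 and 0.189 units with 6-4PP, groups that overlap (log2 difference 0.12, adjusted p = 0.195). This call depends on the setting: with a replicate block the limma adjusted p was 0.0111, and with the non-UV signal subtracted it was 0.0243. With 6-4PP, TC on the complement reached 0.197 and 0.158 units, and with CPD 0.00848 and 0.00672 units (-1.36, adjusted p = 8.75e-04). The higher TC signal with 6-4PP than with CPD was thus also seen in 480 other probes with the step on the opposite strand. The class that was higher with CPD was CT on the complement, at 0.0178 and 0.0188 units against 0.00938 and 0.0105 (0.11, adjusted p = 0.00610). These are all within the 5th to 95th percentile of single no-step probes, which reached 0.0596 and 0.0702 with CPD. From scanner intensity its difference turned (-0.035), and from means over probes too (-0.085).

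The purine before the step also set the antibodies apart. ATTA (a lone TT between adenines) was the brightest lone step with both antibodies, at 1.52 and 1.55 units with CPD and 2.17 and 2.08 units with 6-4PP. GTTA, which differs from it by the base before the pair, gave 0.707 and 0.716 units with CPD but 0.0838 and 0.0798 units with 6-4PP. The 6-4PP antibody lost nearly all of its signal with guanine there, and the CPD antibody kept a good part. The log2 difference for GTTA was 2.16 (SE 0.030, n = 2 per antibody, limma adjusted p = 4.40e-08), the highest among the flank classes of the printed strand. GTTG followed with 0.299 and 0.308 units with CPD and 0.0499 and 0.0622 units with 6-4PP (1.37, adjusted p = 1.69e-06).

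The TT after adenine lay on the other side or near balance. For ATTA the difference was -0.45 (SE 0.034, adjusted p = 7.33e-05), and all 4 arrays separated by antibody. ATTG reached 1.23 and 1.21 units with CPD and 1.33 and 1.29 units with 6-4PP (-0.10, adjusted p = 0.0322). That call was lost from means over probes (limma adjusted p = 0.219) and with the non-UV signal subtracted (0.109). It was also lost with 0.05 units added (0.0904) and with discordant probes left out (0.0748). Without CPD array 1 or 2 the call was lost too, with differences of -0.11 and -0.083. With the median of all probes as the unit both differences turned, to 1.06 for ATTA and 1.40 for ATTG, while GTTA and ATCA kept their direction.

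TC followed the same rule for the base before it with the 6-4PP antibody. ATCA reached 0.989 and 0.958 units with 6-4PP, below the 2.17 and 2.08 units of ATTA, and 0.0451 and 0.0490 units with CPD. Its difference was -2.87 (SE 0.032, limma adjusted p = 3.14e-08), the lowest of all 32 flank classes. ATCG, in which the cytosine belongs to a CpG, reached 0.646 and 0.600 units with 6-4PP and 0.0240 and 0.0212 units with CPD (-2.56, adjusted p = 6.54e-08). With guanine before it, TC was faint with both: GTCA gave 0.0607 and 0.0604 units with 6-4PP and 0.0168 and 0.0110 units with CPD (-0.50, adjusted p = 6.78e-05). GTCG stood at 0.0415 and 0.0460 units with 6-4PP and at -8.01e-04 and 0.00470 units with CPD (-0.49, adjusted p = 7.33e-05).

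The remaining flank classes were dim. Among lone CT steps, ACTA was brightest with 0.118 and 0.108 units with CPD and 0.189 and 0.182 units with 6-4PP (-0.43, adjusted p = 1.15e-04). ACTG stood at 0.0534 and 0.0528 units with CPD and 0.121 and 0.127 units with 6-4PP (-0.55, adjusted p = 1.94e-05). GCTA went the other way, with 0.0414 and 0.0411 units with CPD and 0.0204 and 0.0196 units with 6-4PP (0.24, adjusted p = 5.20e-04). Of 32 flank classes on both strands 26 passed (81.2%), 7 higher with CPD and 19 with 6-4PP. Without CPD array 1 or 2 the count fell to 16 and 15. With the median of all probes as the unit 23 passed, 16 of them higher with CPD. In the non-UV arrays the same 32 classes lay between -0.0102 and 0.0128 units.

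**Figure D1:**
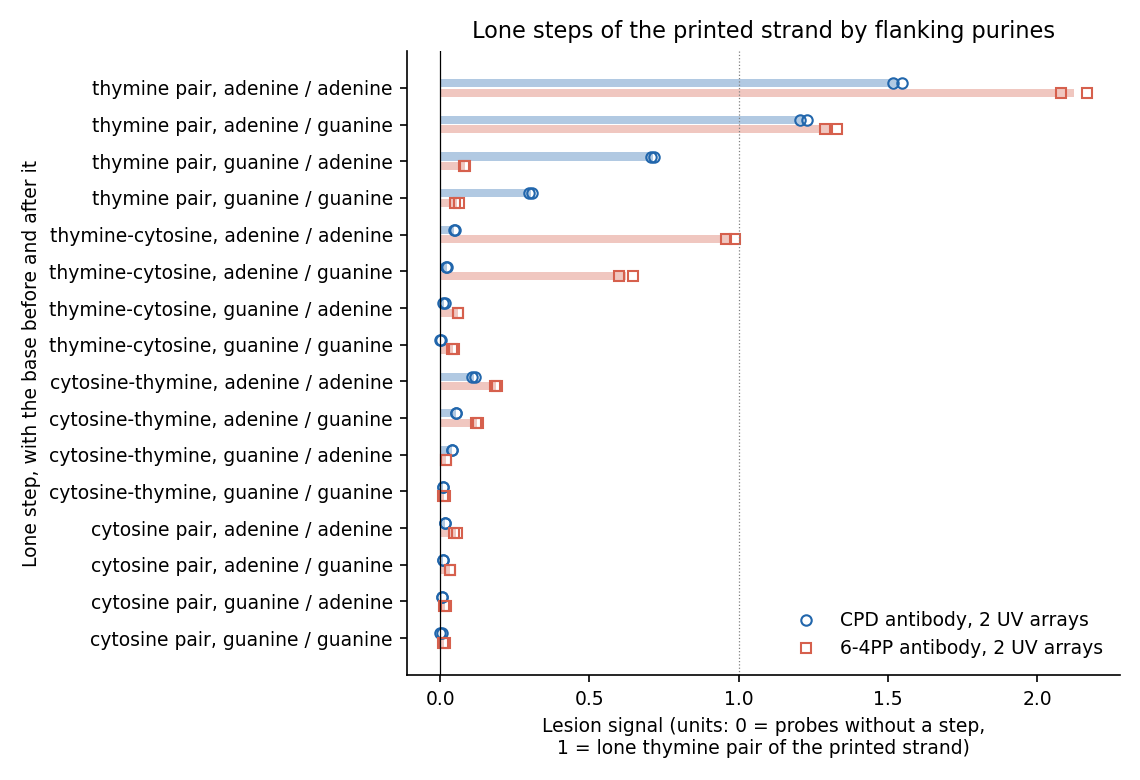
Signal of lone steps on the printed strand, by the purine before and after the step (vertical axis), in units of the lone thymine pair (horizontal axis). Points are single arrays and bars are means of 2 arrays. Thymine pairs after guanine stand out with CPD at 0.711 and 0.303 units, and thymine-cytosine steps after adenine with 6-4PP at 0.974 and 0.623 units.

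On the complement strand the same contexts led. GTTA there gave 0.162 and 0.150 units with CPD and -0.00943 and 0.00114 units with 6-4PP (1.35, SE 0.035, adjusted p = 5.12e-07). GTTG gave 0.0709 and 0.0679 units with CPD and -0.00141 and 0.0163 units with 6-4PP (0.65, adjusted p = 3.94e-04). This call was lost from means over probes (limma adjusted p = 0.387). Without CPD array 1 or 2 it was lost too, with differences of 0.64 and 0.66. With 6-4PP at background there, the GTTG difference was 1.05 or 0.31 with 0.05 or 0.25 units added. ATCA gave 0.384 and 0.319 units with 6-4PP and 0.0168 and 0.0159 units with CPD (-1.95, adjusted p = 2.21e-06). ATCG differed by -1.76 (adjusted p = 5.12e-07). ATTA reached 0.522 and 0.432 units with 6-4PP and 0.333 and 0.300 units with CPD (-0.47, adjusted p = 0.00311). ATTG overlapped, at 0.327 and 0.321 units with CPD and 0.322 and 0.302 units with 6-4PP (adjusted p = 0.328). From means over probes the ATTA difference no longer passed (limma adjusted p = 0.153). Without CPD array 1 or 2 it did not pass either, at -0.52 and -0.41. The GTCA difference of -0.21 lost its call without CPD array 2. GTCG on this strand differed by -0.16 (adjusted p = 0.00311) with all 4 arrays at or below 0.0127 units.

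Ratios within an array need no unit and showed the same exchange. On the printed strand ATCA had 2.97% and 3.16% of the signal of ATTA on the CPD arrays, and 45.6% and 46.1% on the 6-4PP arrays. GTTA had 46.6% and 46.2% of the signal of ATTA on the CPD arrays, and 3.86% and 3.83% on the 6-4PP arrays. The groups are far apart beside a spread of at most 0.308 percentage points (SD, n = 2). With adenine after the pair, on this strand, a cytosine in second place thus cost the CPD signal about as much as a guanine in front cost the 6-4PP signal. With guanine after it the losses were less alike. ATCG had 1.86% of ATTG with CPD, and GTTG had 4.29% of ATTG with 6-4PP (means of 2 arrays). All of these low signals are near probes without a step.

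The effect of the base before a lone TT was tested as a ratio within each array. Adenine over guanine gave log2 ratios of 1.37 and 1.35 with CPD and 3.44 and 3.35 with 6-4PP on the printed strand, a 2.56-fold and a 10.5-fold effect on the scale with 0.1 units added, which understates ratios of faint classes. The difference of these ratios was -2.04 (SE 0.087, limma adjusted p = 4.84e-08), and on the complement strand it was -1.21 (adjusted p = 1.38e-06), from 2.02-fold with CPD and 4.68-fold with 6-4PP. For the base after the pair, adenine over guanine gave 1.58-fold with CPD and 1.36-fold with 6-4PP on the printed strand, averaged over both bases in front. The parts of this average ran opposite ways. ATTG over ATTA was 79.4% ± 2.25 (SD, n = 2) with CPD and 61.6% ± 0.495 with 6-4PP. GTTG over GTTA was 42.3% and 43.0% on the CPD arrays and 59.5% and 77.9% on the 6-4PP arrays, where both are faint. The averaged difference of 0.22 passed narrowly (adjusted p = 0.0484), and on the complement strand the difference of 0.095 did not (adjusted p = 0.308). Of the 4 ratios 3 passed (75%). The difference of 0.22 lost its call without CPD array 1 (adjusted p = 0.262) and without CPD array 2 (0.303), and it turned on a linear scale (-0.059).

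A further base outward changed the levels. On the printed strand it did not change which antibody was higher for ATTA, for TC contexts or for TT after guanine, but it did for ATTG. Printed ATTA with C before and after it (CATTAC) had 1.79 and 1.81 units with CPD and 2.79 and 2.76 units with 6-4PP. With T on both sides (TATTAT) it had 1.05 and 1.20 units with CPD and 1.35 and 1.33 units with 6-4PP, and both were called toward 6-4PP (adjusted p = 2.07e-06 and 0.0164). The bases T and C in these outer places adjoin a purine, so they add no step. C over T before the adenine raised ATTA by 1.19 ± 0.0587 times (SD, n = 2) with CPD and by 1.47 ± 0.00924 times with 6-4PP, and the groups do not overlap. For ATCG this ratio was 0.918 ± 0.0335 with CPD, where the class is near 0, and 1.33 ± 0.00896 with 6-4PP. C over T after the context raised ATTA by 1.37 ± 0.0713 times with CPD and 1.42 ± 0.00585 times with 6-4PP, values that overlap.

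Split this way, all 16 printed TC contexts were higher with 6-4PP and 0 with CPD. Of the 16 printed TT contexts 8 were higher with CPD, all 8 with guanine in front, and 5 with 6-4PP, all 5 with adenine in front. The ATTG contexts lay on both sides of 0. CATTGC differed by -0.21 (adjusted p = 0.0266) and CATTGT by -0.17 (adjusted p = 0.0760). TATTGC had 1.09 and 1.08 units with CPD and 1.00 and 1.11 units with 6-4PP, which overlap (adjusted p = 0.711). TATTGT had 1.18 and 1.19 units with CPD and 1.11 and 1.07 units with 6-4PP, groups that do not overlap in a difference that did not pass (0.11, adjusted p = 0.217). CATCAC was the brightest TC context with 6-4PP, at 1.22 and 1.33 units against 0.0521 and 0.0543 with CPD (-3.16, adjusted p = 7.54e-16). CGTTAC was brightest among TT after guanine with CPD, at 0.922 and 0.936 units against 0.108 and 0.0972 with 6-4PP (2.34, adjusted p = 1.07e-14). In all 81 of 128 such classes passed (63.3%), 22 toward CPD and 59 toward 6-4PP, and with the median of all probes as the unit 76 passed, 55 toward CPD. Without CPD array 1 or 2 the count fell to 44 and 38.

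Pooled over the purine in front, longer thymine runs moved toward CPD. Lone runs of 3 thymines on the printed strand had 1.08 and 1.06 units with CPD and 0.630 and 0.588 units with 6-4PP (172 probes; log2 difference 0.72, adjusted p = 2.33e-05). Runs of 4 had 1.34 and 1.44 units with CPD and 0.742 and 0.744 with 6-4PP (0.82, adjusted p = 1.34e-05). Runs of 5 had 1.58 and 1.85 units with CPD and 0.688 and 0.773 with 6-4PP (27 probes; 1.13, SE 0.088, adjusted p = 3.62e-05). In these pooled classes the CPD signal thus grew with length while the 6-4PP signal stayed below that of the lone pair.

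The base before the run mattered here too. After adenine, runs of 2, 3, 4 and 5 thymines had mean CPD signals of 1.33, 1.41, 1.65 and 2.08 units and mean 6-4PP signals of 1.57, 0.942, 0.943 and 1.07 units. After guanine the CPD means were 0.388, 0.662, 0.803 and 1.08 units and the 6-4PP means 0.0660, 0.115, 0.126 and 0.162 units. From 2 to 5 thymines after adenine the CPD arrays went to 151% and 162% and the 6-4PP arrays to 68.5% and 68.3%. After guanine both grew, to 278% ± 28.1 (SD, n = 2) with CPD and 246% ± 11.0 with 6-4PP, means that differ by little more than the CPD spread. The move toward CPD with length was thus clear after adenine alone. After guanine CPD was ahead at every length, by 5.77, 6.39 and 6.66 times for 3, 4 and 5 thymines. So in thymine runs, too, guanine in front left the 6-4PP signal low at every length. With the purine in front as part of the class, 206 of 224 lone runs passed (92%), 39 toward CPD and 167 toward 6-4PP, and with the median of all probes as the unit 193 passed, 97 toward CPD. The runs of 5 after guanine rest on 12 probes.

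**Figure D2:**
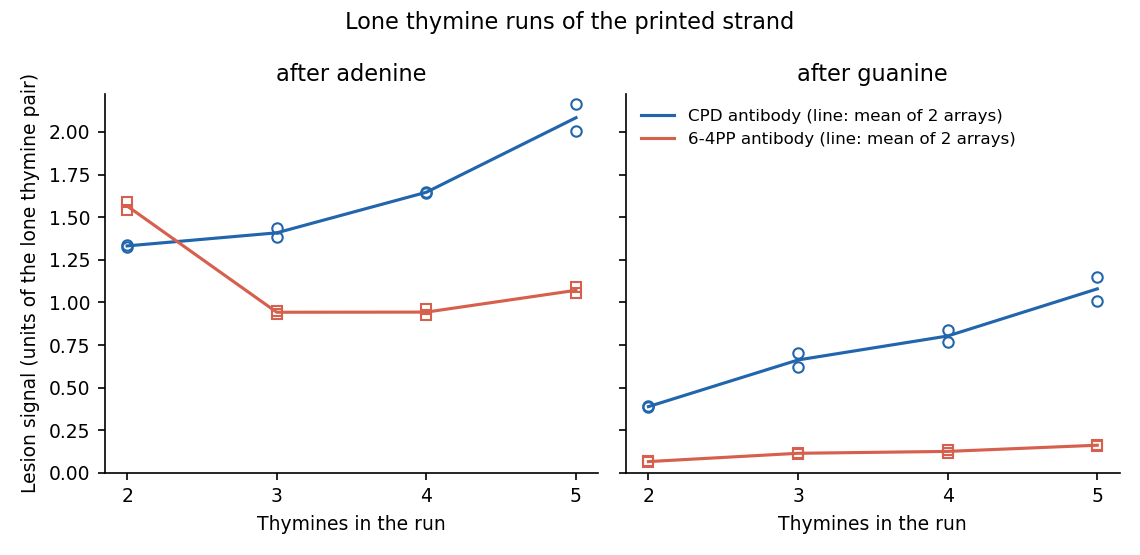
Signal of lone thymine runs on the printed strand against their length, after adenine (left) and after guanine (right), in units of the lone thymine pair. Points are single arrays and lines are means of 2 arrays. After adenine the CPD line rises from 1.33 to 2.08 units while the 6-4PP line drops from 1.57 to 0.942 units between 2 and 3 thymines, and after guanine all 6-4PP means are at most 0.162 units.

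Pooled over the base in front, runs that hold TC without a thymine pair were nearly dark with CPD and brighter with 6-4PP. The designed TCC and TCT sequences below show that the purine in front matters for these runs too. TCCTC on the printed strand had 0.0229 and 0.0412 units with CPD and 1.23 and 1.22 units with 6-4PP (31 probes). Its difference of -3.33 (SE 0.075, limma adjusted p = 1.65e-07) was the lowest of 112 run classes. CCTCC followed with 0.0141 and 0.0113 units with CPD and 0.888 and 0.853 units with 6-4PP (-3.11). CTCCT reached 1.05 and 0.995 units with 6-4PP (-2.89), CTCC reached 0.926 and 0.912 (-2.85), TCTCC reached 0.765 and 0.712 (-2.81) and CTCCC reached 0.846 and 0.879 (-2.81), while all 4 stayed at or below 0.0551 units on both CPD arrays. The adjusted p of each of these 5 was 7.29e-08. Of 20 printed runs of 3 to 5 with TC and no TT, all 20 were higher with 6-4PP, with CPD means from 0.0127 to 0.0633 units and 6-4PP means from 0.200 to 1.22 units.

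The bases of a triplet and their order changed the signal of both antibodies. CTC had 0.872 and 0.798 units with 6-4PP, and TCT had 0.177 and 0.222 units. Both hold a TC and a CT step, but they differ in their number of cytosines. The CPD arrays gave 0.0421 and 0.0421 units for CTC and 0.0470 and 0.0422 units for TCT. In TCT the base before the TC is a purine and in CTC it is a cytosine. TCC had 0.672 and 0.638 units with 6-4PP. CTT had 1.59 and 1.50 units with 6-4PP and 0.633 and 0.615 units with CPD (-1.18, adjusted p = 2.45e-06). TTC had 1.22 and 1.17 units with 6-4PP and 0.796 and 0.867 units with CPD (-0.48, adjusted p = 3.06e-04). On the printed strand the order of CTT and TTC was thus opposite. TTC over CTT there was 133% ± 10.7 (SD, n = 2) with CPD and 77.5% ± 0.976 with 6-4PP. On the complement strand TTC was below CTT with both antibodies, at 63.4% and 60.5% with CPD and 49.0% and 53.2% with 6-4PP. The base before the thymine pair also differs: a cytosine in CTT and a purine in TTC.

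Runs with both a thymine pair and TC lay between. TTCTT was bright with both, at 1.62 and 1.54 units with CPD and 2.37 and 2.21 units with 6-4PP (-0.51, adjusted p = 2.12e-04). Of 21 such printed runs 17 were higher with 6-4PP and 4 with CPD, and all 4 begin with at least 3 thymines: TTTC with a difference of 0.38, TTTCT with 0.40, TTTCC with 0.48 and TTTTC with 0.59. These classes pool runs after adenine with runs after guanine, and the designed TTC sequences below split by that base. On the complement strand TTTTC had 0.206 and 0.211 units with CPD and 0.0986 and 0.0592 units with 6-4PP (0.80, adjusted p = 4.79e-04). Complement runs of 4 thymines differed by 0.93 and of 5 by 0.88 (adjusted p = 5.91e-06 and 6.18e-05). Runs of cytosines alone were faint: CCC had 0.00544 and 0.00550 units with CPD and 0.0559 and 0.0555 units with 6-4PP.

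Over both strands 108 of the 112 run classes passed (96.4%), 14 toward CPD and 94 toward 6-4PP. With the median of all probes as the unit 101 passed, 48 toward CPD. Among the runs without a call was CTTTT on the printed strand, with 1.10 and 1.04 units with CPD and 0.995 and 0.906 with 6-4PP (adjusted p = 0.0532). In the non-UV arrays the 112 classes lay between -0.0178 and 0.0281 units.

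**Figure D3:**
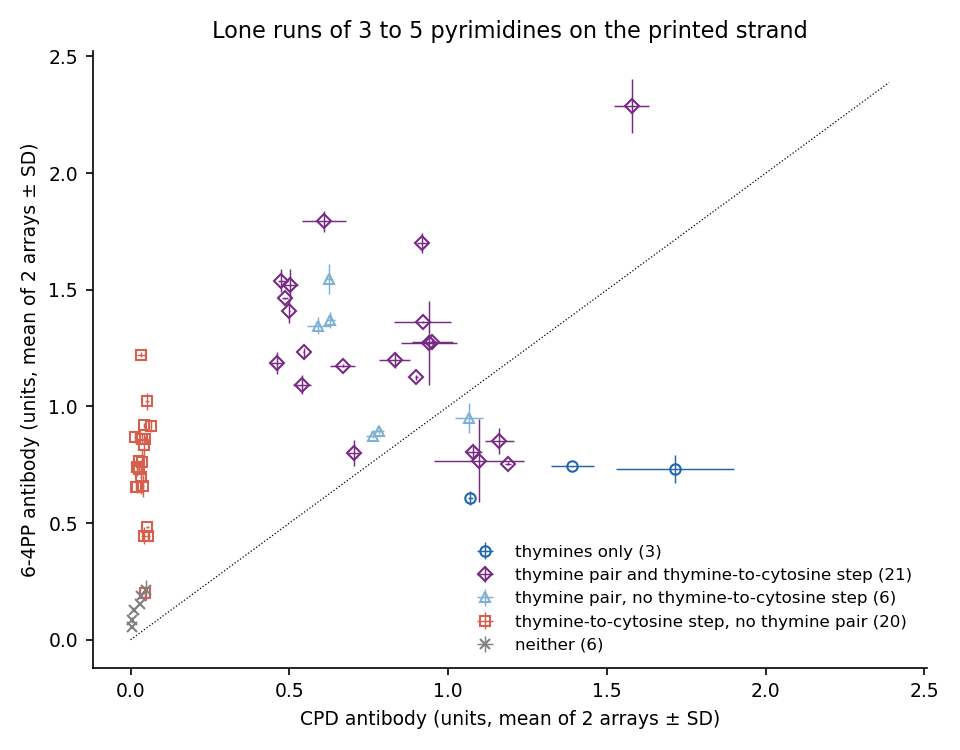
Each point is 1 lone run of 3 to 5 pyrimidines on the printed strand, with its CPD signal (horizontal) and 6-4PP signal (vertical) as means of 2 arrays with SD, in units of the lone thymine pair; the dotted line marks equal values. The 20 runs with a thymine-to-cytosine step and no thymine pair stand at the left edge, at most 0.0633 units with CPD and up to 1.22 units with 6-4PP, and the 3 runs of thymines alone lie below the line.

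A designed set on the array allowed the triplets to be read in a fixed backbone and from many spots. In it 96 sequences in 16 sets of 6 carry a lone triplet on the printed strand, each printed on 10 to 20 spots. The first set differs only in the capitals, and it shows how a change of 1 to 3 bases moved the signal.
cytosine, cytosine, cytosine: gtaCCCatacacgtgtgtatatgcacg
cytosine, thymine, cytosine: gtaCTCatacacgtgtgtatatgcacg
thymine, cytosine, cytosine: gtaTCCatacacgtgtgtatatgcacg
thymine, cytosine, thymine: gtaTCTatacacgtgtgtatatgcacg
thymine, thymine, cytosine: gtaTTCatacacgtgtgtatatgcacg
thymine, thymine, thymine: gtaTTTatacacgtgtgtatatgcacg
In this backbone TTT had 1.15 and 1.13 units with CPD and 0.509 and 0.484 units with 6-4PP (log2 difference 1.06, limma adjusted p = 0.00184, fitted over all probes). TTC had 0.765 and 0.833 units with CPD and 0.789 and 0.801 units with 6-4PP, groups that overlap (adjusted p = 0.974). In this backbone, where adenine stands before the triplet, a last base changed to cytosine thus left the antibodies no longer separated. TCC had 0.00950 and 0.0170 units with CPD and 0.318 and 0.333 units with 6-4PP. CTC had 0.0429 and 0.0420 units with CPD and 0.527 and 0.516 units with 6-4PP (-2.13, adjusted p = 6.22e-04). CCC was near 0 with both, at most 0.0198 units, and did not pass (adjusted p = 0.512).

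Over the 16 sets, which share much of their backbone, TTT was higher with CPD in 15 of 16 sequences and with 6-4PP in 0. CTC and CTT were each higher with 6-4PP in all 10 of their sequences. TCC was higher with 6-4PP in 9 of 12 sequences and TCT in 6 of 16, with 0 of either toward CPD. All called TCT sequences follow adenine. The 6-4PP means of TCC ran from 0.325 to 1.89 units after adenine. After guanine they ran from 0.0369 to 0.125 units. TTC went both ways, with 6 of 12 higher with CPD and 3 with 6-4PP, and it split by the purine in front. All 6 toward CPD follow guanine, and the 3 toward 6-4PP and those without a call follow adenine. Within the latter, the 3 toward 6-4PP have guanine after the triplet and those without a call have adenine there. Its 6-4PP means ran from 0.0304 units (start 4) to 0.218 units (start 16) after guanine. After adenine they ran from 0.779 units (start 4) to 2.79 units (start 18), so place and backbone moved them as well. In all 21 of the 96 sequences were higher with CPD and 51 with 6-4PP, where 70.6% of all probes were called in either direction. The TTT sequence without a call, in the second set, had 0.511 and 0.816 units with 6-4PP and an SE over spots of 0.377 on the higher array.

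**Figure D4:**
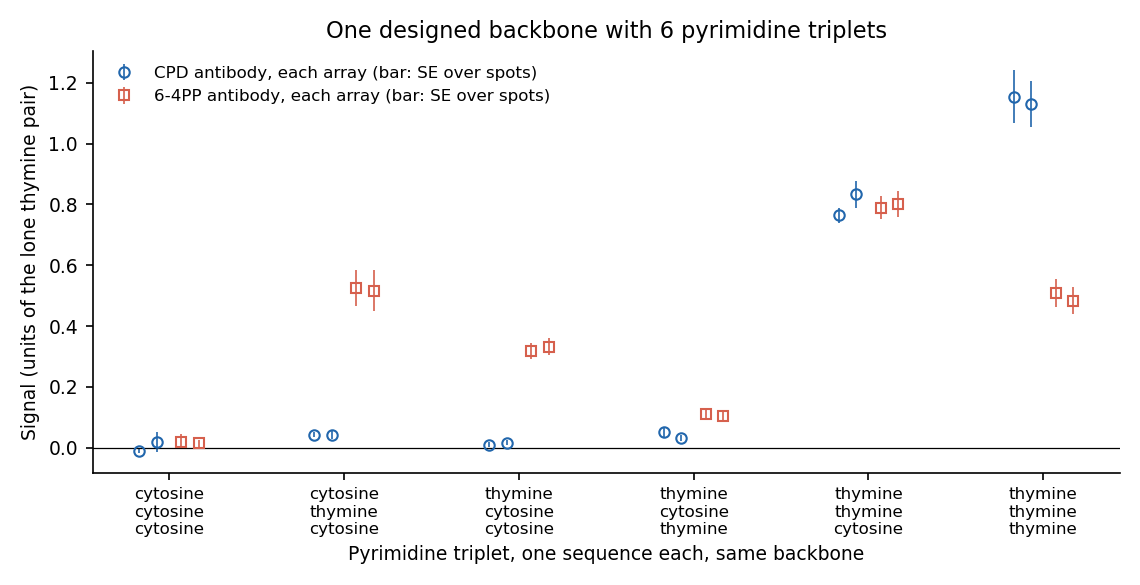
Signal of 6 sequences that share a backbone and differ in a pyrimidine triplet (horizontal axis), in units of the lone thymine pair (vertical axis). Points are single arrays, and bars are the SE over the 10 or 20 spots of the sequence. The thymine triplet reads 1.14 units with CPD and 0.496 units with 6-4PP, and the triplet with thymine between cytosines 0.0425 and 0.522 units.

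All probes, most of which hold several steps, were then fitted by least squares with an additive effect for each context. For contexts of a step with the base before and after it, the design determines 18 of 64. The 4-base context gave 48.9% ± 5.94 (SD, n = 2) of the probe variance with CPD and 55.0% ± 2.55 with 6-4PP. All 18 differed between the antibodies (100%), 3 toward CPD and 15 toward 6-4PP, and with the median of all probes as the unit 17 passed, 8 toward CPD. Toward CPD were GTTA, with 0.481 and 0.482 units per copy against 0.166 and 0.151 (0.32, adjusted p = 1.41e-04), GTTG with 0.14 and TTTT with 0.15. Toward 6-4PP the largest were ATCA, with 0.0417 and 0.0484 units per copy against 1.16 and 1.05 (-1.06, adjusted p = 2.29e-04), ATCG with -0.79 and ATTA with -0.62. GTCA followed with -0.20, then ATTG with -0.16, ACCA with -0.15, GTCG with -0.15 and GCCA with -0.12. These differences are in units per copy on a linear scale. GCTA, higher with CPD on probes with a lone step, was higher with 6-4PP here (-0.056, adjusted p = 0.00123), each on its own scale. The sign of ATTA, that of ATTG, that of GCTA and that of ACTG turned with the median of all probes as the unit.

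Fitted by whole runs, 59 of 63 words passed (93.7%), 5 toward CPD and 54 toward 6-4PP, and with the median of all probes as the unit 60 passed, 28 toward CPD. The run effects gave 41.0% ± 5.04 of the probe variance with CPD and 39.1% ± 1.97 with 6-4PP. The 5 words toward CPD all begin with 3 thymines: runs of 5 with 1.02 and 1.04 units per copy against 0.538 and 0.527 (0.49, adjusted p = 2.93e-06), runs of 4 with 0.39, runs of 3 with 0.21, TTTTC with 0.16 and TTTCT with 0.09. TTTCT lost its call without either CPD array (adjusted p = 0.257 and 0.165). Toward 6-4PP, TCCTC led with 0.0553 and 0.0762 units per copy against 1.34 and 1.21 (-1.21, adjusted p = 2.00e-06). TCCTT was close with 0.460 and 0.477 against 1.71 and 1.64 (-1.20). CTCCC had -0.92, TCTCC -0.90, CTCC -0.89 and runs of 8 or more pyrimidines -0.89. The word effects gave the same leading 6-4PP run as the lone runs, TCCTC.

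Probe by probe, 86151 of 122095 passed (70.6%), 9908 higher with CPD and 76243 with 6-4PP. With the median of all probes as the unit 75312 passed, 43993 of them higher with CPD, and with quantile normalization 70815, 37230 of them with CPD. The counts of each direction thus rest on the unit. The make-up of the lists and the shares below are for the lone TT unit and were not taken with another one. The make-up is set against the whole array. Of the probes higher with CPD 97.7% held TT and 80.1% held GTT, against 65.1% and 24.5% of all probes. Of the probes higher with 6-4PP 87.7% held TC, 45.6% ATC and 32.9% CTC, against 75.8%, 32.8% and 23.6% of all probes. Of the 32210 probes with TC and no TT, 35 were higher with CPD (0.109%) and 27522 with 6-4PP (85.4%). Of the 19147 probes with TT and no TC, 5336 were higher with CPD (27.9%) and 6109 with 6-4PP (31.9%). Probes share contexts and are not replicates of one another.

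TC steps raised the 6-4PP signal and hardly the CPD signal, and TT steps raised both. In probes without TT, going from 0 to 4 TC steps over both strands took the median 6-4PP signal from 0.0669 to 2.27 units and the CPD signal from 0.0229 to 0.0668 units. In probes without TC, going from 0 to 4 TT steps took the CPD signal from 0.0229 to 1.31 units and the 6-4PP signal from 0.0669 to 1.09 units. At 2 TT steps the CPD median was 0.758 units without TC and 0.798 with 4 TC steps, while the 6-4PP median went from 0.748 to 2.59 units. The CPD signal was thus nearly level along TC at that count of TT.

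**Figure D5:**
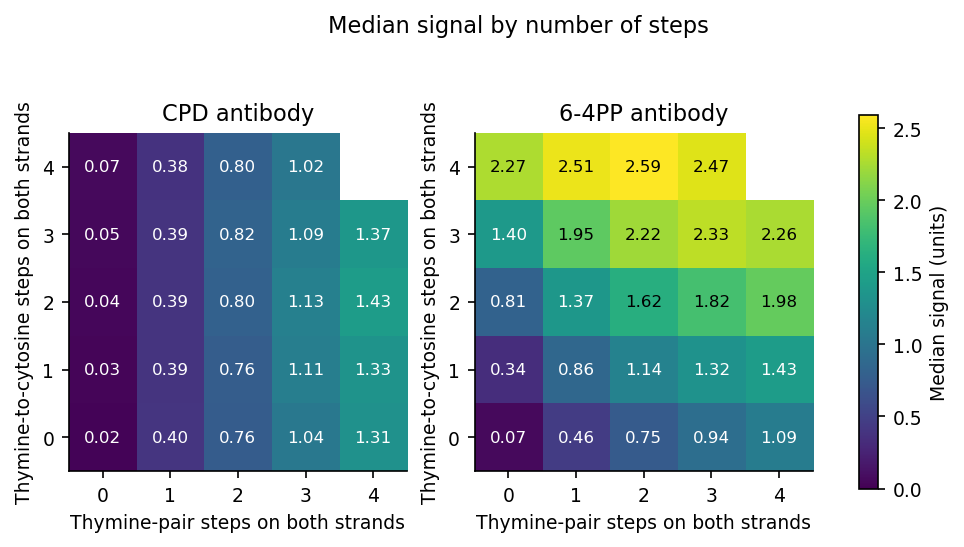
Median signal of probes by their number of thymine-pair steps (horizontal) and thymine-to-cytosine steps (vertical) over both strands, for the CPD antibody (left) and the 6-4PP antibody (right), in units of the lone thymine pair; cells of under 50 probes are blank. With CPD the colour changes along the horizontal axis, from 0.0229 to 1.31 units in the lowest row, and with 6-4PP along both axes.

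The extreme single probes show these contexts combined. The 3 with the largest difference toward each antibody, among probes at 0.5 units or more on both arrays of the brighter antibody, are shown with the runs of the printed strand in capitals. They were picked for that difference, so their values are a description. Each was printed on 1 spot, and its values carry spot error that the arrays of the same number may share.
CPD probe 1: cgtatgcagTTTacgtatgtatgcacg
CPD probe 2: gtatgcagcgTTTacgcgCCgcgcacg
CPD probe 3: gtatgcgtatgTTacggTTTgcgcacg
6-4PP probe 1: gtatgcgCTCgCTCgagCTCgcgcacg
6-4PP probe 2: tatgcatgaTCCCCaTCgatgcgcacg
6-4PP probe 3: gtatgcagcaTCacgtgaTCgcgcacg
All thymine runs of the CPD probes follow guanine. The first had 1.09 and 1.10 units with CPD and -0.0202 and 0.00773 units with 6-4PP. None of the 6-4PP probes shows a thymine pair, and their TC steps follow adenine or cytosine. The first had 0.0270 and 0.00166 units with CPD and 6.38 and 5.21 units with 6-4PP. The second had 7.72 and 6.91 units with 6-4PP, and the third 5.26 and 5.94 units, with CPD at or below 0.0714 units on both arrays for each.

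Place along the probe moved levels within some contexts. Printed ATTG had 1.01 and 1.10 units with CPD and 1.26 and 1.25 units with 6-4PP at start 7. At start 13 it had 1.37 and 1.36 units with CPD and 1.32 and 1.26 units with 6-4PP, so the order of the antibodies turned. Over its starts, 7 to 13, the means of printed ATTA ran from 1.36 to 1.70 units with CPD and from 2.03 to 2.24 units with 6-4PP. For GTTA they ran from 0.670 to 0.749 units with CPD and from 0.0719 to 0.0900 units with 6-4PP. Printed lone TT probes had slopes of -3.22% and -4.26% per base with CPD and -10.2% and -10.1% with 6-4PP (limma adjusted p = 0.00533). But start 7 holds ATT contexts and hardly any GTT contexts, so this pooled slope mixes place and context. On the complement strand, with place counted along the printed one, slopes were 9.38% and 13.7% with CPD and 11.7% and 17.4% with 6-4PP. Their difference did not pass in the main fit (limma adjusted p = 0.399).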

How the data were processed

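Alexa 488 fluorescence was read on 8 arrays, 2 per antibody with UV and 2 without. The deposited values are linear intensities of 180880 spots per array, per the file headers. The deposited adjusted intensity equals the normalised intensity times a constant of the array over the median of the local neighbourhood, and it was used here. No header or label names the software. Spots at the ceiling of 65535 numbered 89 to 288 per array. The 2 arrays per group limit the precision.

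Spots of 1 sequence were averaged, the median of probes without a step was subtracted, and values were divided by the lone TT median. Classes needed at least 10 probes and are medians over probes. Values below 0 were set to 0 before log2 of units plus 0.1, and regressions and position slopes stayed linear. Tests used limma 3.58.1 (lmFit, eBayes) in R 4.3.3 with Python 3.11.15, numpy 2.4.6 and pandas 2.3.3, over the 4 UV arrays. The fits were also run on simulated data with noise drawn independently for each array, which does not cover spot features shared between arrays. The printed lone TT is 1 by construction and was not tested. Only 18 of the 64 step contexts are determined by the regression.

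Named were all lone steps, all TT and TC flank classes with the 4 highest and 4 lowest, the 6 highest and lowest called runs and words, the 8 highest and lowest contexts, and 3 probes each way. Members and lists were chosen with earlier results of these data known. The flank ratios, ratios within an array, runs by the purine before them, the designed triplets, runs of 6 and 2 alternatives (a unit from the 4 TT contexts, discordant probes left out) were chosen after the data were seen, as were other contexts named as examples. The alternatives are given at the end.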

Additional observations from a re-analysis of the deposited data

How the results depend on the processing

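Of 1380 values of 81 named results under alternatives, 1305 kept their direction and side of the threshold, 47 lost the call, 13 gained it and 15 reversed. The unit decides most reversals: with the median of all probes as the unit, the difference was 0.41 for lone CT (printed), 1.06 for lone ATTA, 1.40 for lone ATTG and 0.86 for ATTA on the complement. In the regressions it was then 1.24 for ATTA, 1.78 for ATTG, 0.079 for GCTA, 0.079 for ACTG, 1.46 for CTTTT and 0.32 for runs of 8 or more. The other 5 reversals were small: CT on the complement at -0.085 from means over probes and at -0.035 from scanner intensity, ATTG on the complement at -0.019 with the unit from the 4 TT contexts, and the ratio of the base after the pair at -0.059 (printed) and -0.037 (complement) on a linear scale.

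Counts of calls moved by over 1.5 times as follows. From means over probes, 13 flank classes and 53 classes with 2 flanking bases passed. With at least 30 probes per class, fewer classes were tested, and 44 with 2 flanking bases, 62 runs and 89 runs by the purine before them passed. Leaving out 1 array at a time gave 15 to 30 flank classes and 38 to 65 classes with 2 flanking bases, both lowest without a CPD array. The probe count was then 63599 to 67753, within 1.5 times. Of the 2 position slopes, 2 passed with discordant probes left out, with spots at the ceiling left out and with a replicate block, 0 with the median of all probes as the unit (5 slopes tested), and 0 to 1 with an array left out. In such fits the lone remaining array is assumed to vary like the others.

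Replicate numbers recur across the antibodies, but with 2 pairs the pairing rests on shared spot features alone. With a replicate block 7 step classes, 25 flank classes, 91 classes with 2 flanking bases, 107 runs, 18 contexts, 58 words, 2 flank ratios and 94019 probes passed. The robust fit was not run for the position slopes. Class values below about 0.1 units are close to the spread of probes without a step.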

Other observations

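Lone runs of 6 pyrimidines, of which 64 types were printed with at least 10 probes each on the listed strand, extended the pattern of the shorter runs in part. All 19 with TC and no thymine pair had a higher mean with 6-4PP than with CPD, with median levels of 0.849 and 0.0407 units. The run of 6 thymines had 1.79 and 1.71 units with CPD and 0.662 and 0.782 units with 6-4PP. Of the 38 runs with both a thymine pair and TC, 7 had the higher mean with CPD. Among these, TCTTTT begins with a single thymine, unlike the shorter ones called toward CPD. It had 1.09 and 1.06 units with CPD and 0.877 and 0.786 units with 6-4PP. Of the 4 with a thymine pair and no TC, 2 had the higher mean with CPD. Of the 6 such shorter runs, 0 were called toward CPD. TTCCTT was highest with 6-4PP, at 2.57 and 2.17 units against 1.41 and 1.50 with CPD. TTTCTT was level, at 1.71 and 1.80 units with CPD and 1.70 and 1.62 with 6-4PP. No test was run on these runs.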
